A study of Mus musculus with 13 samples.

Results

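The matrix metalloproteinases Mmp13, Mmp3, Mmp10, Mmp7, Mmp2, Mmp9 and Mmp14 and the tissue inhibitors of metalloproteinases Timp1, Timp2 and Timp3 were followed in cultured mouse prostate progenitor/stem cells given the vitamin D hormone 1,25-dihydroxyvitamin D3 (1,25D). These 10 genes were taken by gene symbol, and all 10 were found among the 18193 named genes of the array; together they had 22 probe sets, and each gene is described by the one brightest on average across the 13 arrays. The cells came from 10 wk old mice, labelled wild-type B1/6; 127/SVEV, and were used at passage 22. They were treated for 48 h with 100 nM 1,25D (4 arrays) or with vehicle, 0.1% ethanol, for 48 h (3 arrays), with treatment repeated daily, or for 6 h with 100 nM 1,25D (3 arrays) or vehicle (3 arrays). Nothing in the labels tells if replicate arrays came from separate cultures, so p-values measure only the spread between these arrays, which may be technical.

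Metalloproteinases are zinc proteases that cut collagens, laminins, proteoglycans and other proteins of the extracellular matrix, and most are secreted as inactive precursors that other proteases activate. Mmp13 is a collagenase, Mmp3 and Mmp10 are stromelysins, Mmp7 is matrilysin, and Mmp2 and Mmp9 are gelatinases. Mmp14 is anchored in the cell membrane, where it activates the Mmp2 precursor together with Timp2. The Timp proteins bind the active site of these enzymes; Timp3 differs from the others in being held in the matrix, and it also blocks certain Adam and Adamts proteases. In the prostate, remodelling of the matrix by these enzymes accompanies branching of the ducts and their regression after loss of androgen.

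The members with the largest responses, Mmp13, Mmp3 and Mmp10, lie in a cluster of metalloproteinase genes on mouse chromosome 9 that also holds Mmp7, with other genes of the cluster between them. The stretch around the transcription start is shown for these 4 and for the inhibitor Timp3, because Mmp13, Mmp3 and Mmp10 moved together at 48 h, Mmp7 shares their region without being called, and Timp3 moved the other way at 6 h. The sequences are RefSeq's on GRCm38.p6, plus strand, 5′ to 3′, from 100 bases before the start to 20 bases after it: chr9:7272414-7272533 for Mmp13, chr9:7445722-7445841 for Mmp3, chr9:7502242-7502361 for Mmp10, chr9:7691990-7692109 for Mmp7 and chr10:86300312-86300431 for Timp3. Capitals mark AP-1 motifs, the site bound by Fos and Jun proteins.
Mmp13: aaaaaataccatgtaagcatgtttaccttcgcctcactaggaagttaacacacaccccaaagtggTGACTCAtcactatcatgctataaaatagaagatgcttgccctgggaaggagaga
Mmp3: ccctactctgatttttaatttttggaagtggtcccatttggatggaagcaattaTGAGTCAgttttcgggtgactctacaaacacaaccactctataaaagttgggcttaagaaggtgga
Mmp10: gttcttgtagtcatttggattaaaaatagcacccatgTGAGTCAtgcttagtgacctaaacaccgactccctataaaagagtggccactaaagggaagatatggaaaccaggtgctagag
Mmp7: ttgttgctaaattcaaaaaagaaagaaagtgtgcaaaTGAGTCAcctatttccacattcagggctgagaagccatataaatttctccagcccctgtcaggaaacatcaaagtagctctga
Timp3: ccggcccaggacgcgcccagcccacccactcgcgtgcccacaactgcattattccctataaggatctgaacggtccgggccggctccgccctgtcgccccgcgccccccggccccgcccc

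Promoter sequence, from 250 bases before to 50 after the start, was at hand for 8 of the 10 genes. The AP-1 motif was searched as TGAGTCA and TGACTCA, which are each other's complement, so that 1 site counts once on both strands. It occurred once each in Mmp13, Mmp3, Mmp10 and Mmp7, with its first base 35, 46, 63 and 63 bases before the start, and not in the windows of Mmp14, Timp1, Timp2 or Timp3. Of all 32851 promoter windows of this length, 5.2% held it. Paired vitamin D receptor motifs, direct repeats with 3 bases between, were searched on both strands. The letters AGGTCA made up the first form of each repeat, the letters AGTTCA made up the second form, the letters GGGTCA made up the third and the letters GGTTCA made up the fourth, in any pair. None of the 8 windows held such a pair, against 0.0396% of all windows. The windows of Mmp13, Mmp3, Mmp10 and Mmp7 had a GC content of 43.7%, 40%, 37.7% and 39%, against 67% for Timp3, 68.7% for Timp2 and a median of 52.7% over all windows. These matches describe the letters in the windows and say nothing about binding of a factor in these cells.

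Signals are the authors' deposited values on a log2 scale, on which 1 unit is a 2-fold step. Groups were compared in limma by a moderated test over all probe sets; a gene was called, and is said to have risen or fallen, at an adjusted p (Benjamini-Hochberg) under 0.05, and a difference is that of the group means. Over all arrays values ran from 3.05 to 14.45, with medians of 5.573 to 5.668. Vehicle 6 h replicate 1 and 1,25D 48 h replicate 4 had narrower distributions (interquartile ranges of 3.03 and 2.95) than the other 11 arrays (3.27 to 3.46), and the number of members called in each comparison was the same without both. Cyp24a1, the hydroxylase that breaks down 1,25D, served as a check of the hormone, with a log2 signal of 12.39 ± 0.16 in 1,25D and 4.56 ± 0.42 in vehicle at 48 h and of 13.03 ± 0.20 in 1,25D and 4.53 ± 0.22 in vehicle at 6 h (SD).

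Epithelial markers were high in every group: all 7 basal markers examined (among them Krt5, Krt14 and Trp63) lay above the median of all probe sets, and so did Krt8, Krt18 and Krt19 of 4 measured luminal markers. The secretory gene Pbsn lay at the 5.2 to 7.1 percentile of all probe sets. Of 11 markers of fibroblasts and smooth muscle, cells that also make metalloproteinases, 8 lay below that median in all groups and none was called at 48 h or 6 h. Acta2 (62.9 to 66.6 percentile) and Des (58.6 to 60.8) lay above it in every group, and Pdgfrb (49.5 to 55.5) lay on either side. At 48 h Krt8 (-0.43) and Krt18 (-0.34) were lower and Krt19 (0.58) was higher in 1,25D than in vehicle. The 48 h Krt19 call was lost in 10 of 27 alternative settings, 6 of them leaving out 1 array (adjusted p up to 0.183). Krt19 was also higher at 6 h (0.796, adjusted p = 0.00925), a call lost in 4 of 27 settings, 2 of them leaving out 1 array.

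**Figure D1:**
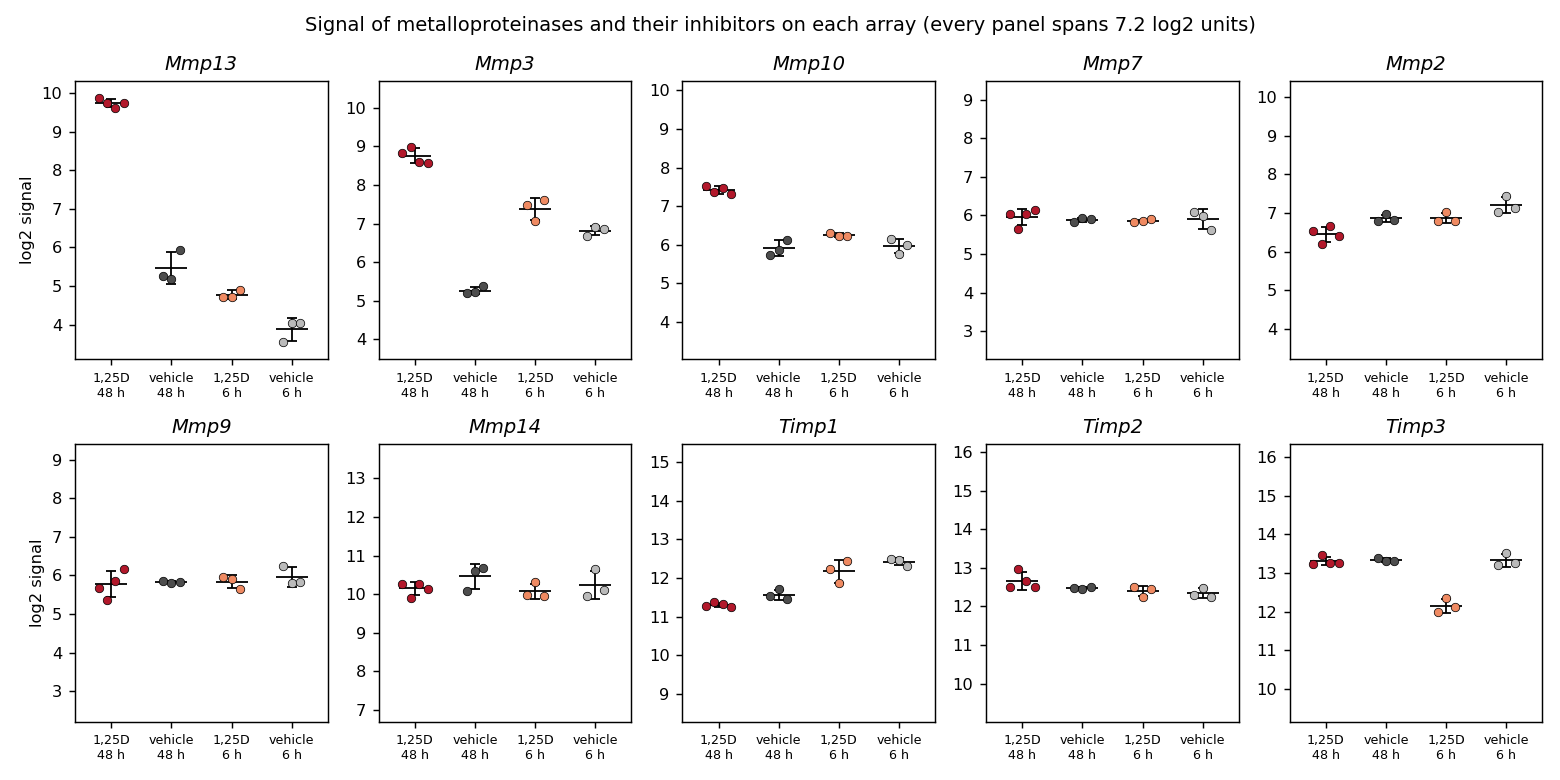
Log2 signal of the 10 genes on each array, with 1 panel per gene; points are arrays, and the dash and bars give the mean ± SD of 4 arrays (1,25D 48 h) or 3 arrays (other groups). Mmp13, Mmp3 and Mmp10 were highest in 1,25D at 48 h, and Timp3 was lowest in 1,25D at 6 h.

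After 48 h of 1,25D, 3 of the 10 genes rose and 0 fell, against 1.43% and 0.951% of all genes; 2 more had an unadjusted p under 0.05. The 3 were Mmp13, Mmp3 and Mmp10, the only collagenase and stromelysins among the 10 genes, and the same 3 had the largest differences of the set. The median log2 difference was 0.0254 over the 10 genes and -0.00239 over all genes. The set was drawn up with earlier results of these arrays known, so its count is a description.

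Mmp13, which cuts fibrillar collagens, had log2 signals of 9.88, 9.73, 9.61 and 9.74 in 1,25D, against 5.27, 5.17 and 5.95 in vehicle at 48 h. Every treated array lay more than 3 log2 units above every vehicle array. The difference was 4.28 (SE 0.19, adjusted p = 2.09e-08), a 19.4-fold rise with a 95% interval of 14.6 to 25.7. In such bulk RNA, a change in the share of cells that express a gene and a change in RNA per cell cannot be told apart.

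Mmp3, stromelysin-1, which cuts proteoglycans and laminin and activates other metalloproteinase precursors, had log2 signals of 8.84, 8.995, 8.61 and 8.58 in 1,25D, against 5.19, 5.23 and 5.37 in vehicle at 48 h. Again the groups did not overlap, and the 3 vehicle arrays lay within 0.2 of one another. The difference was 3.49 (SE 0.16, adjusted p = 2.27e-08), an 11.2-fold rise with a 95% interval of 8.90 to 14.2.

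Mmp10, stromelysin-2, had log2 signals of 7.53, 7.37, 7.46 and 7.31 in 1,25D, against 5.75, 5.87 and 6.13 in vehicle at 48 h. The 4 treated arrays were close together and all above the vehicle arrays. The difference was 1.501 (SE 0.14, adjusted p = 2.38e-05), a 2.83-fold rise with a 95% interval of 2.31 to 3.47. The sizes depend on the log scale at the dim end: with an offset of 64 added to the linear signal before taking logs, the differences were 3.08 for Mmp13, 2.28 for Mmp3 and 0.92 for Mmp10. All 3 stayed called in each of 27 alternative settings, with adjusted p of at most 0.00328.

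**Figure D2:**
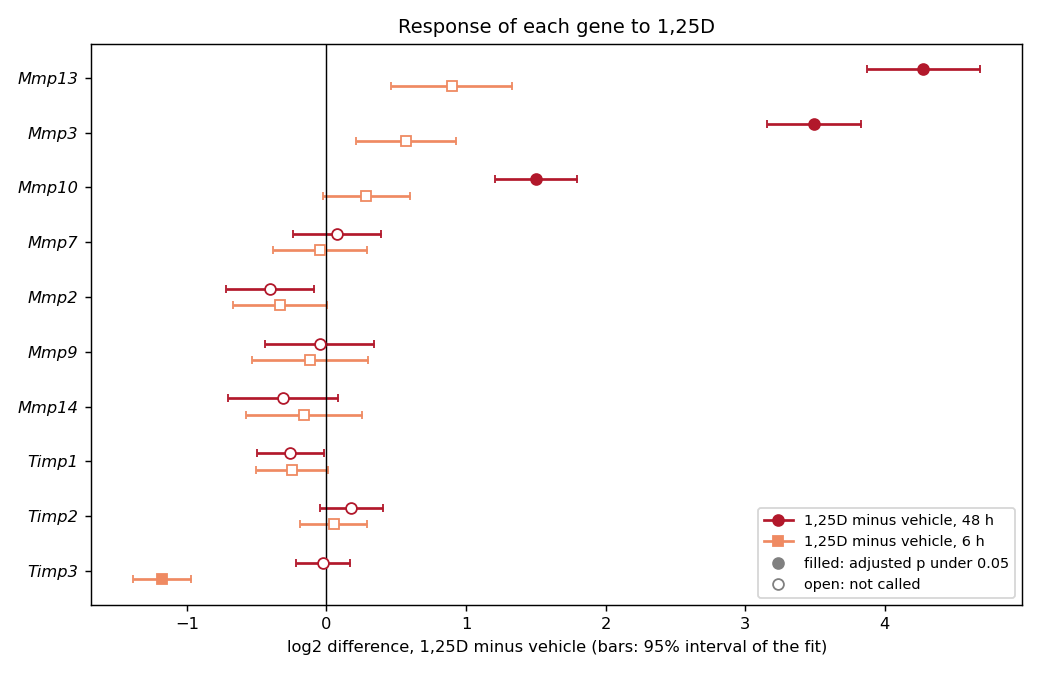
Log2 difference between 1,25D and vehicle at 48 h (circles) and 6 h (squares) for the 10 genes, with 95% intervals of the limma fit; filled symbols passed an adjusted p of 0.05. Mmp13 (4.28), Mmp3 (3.49) and Mmp10 (1.501) stand to the right at 48 h, and Timp3 (-1.18) stands to the left at 6 h.

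The other 4 metalloproteinases were not called at 48 h. Mmp2, the gelatinase that Mmp14 activates, had log2 signals of 6.54, 6.20, 6.65 and 6.41 in 1,25D, against 6.78, 6.96 and 6.83 in vehicle. Every treated array lay below every vehicle array, and the difference of -0.41 (95% interval -0.72 to -0.0924) did not pass (adjusted p = 0.387). A second Mmp2 probe set differed by -0.68 and did not pass either (adjusted p = 0.126), whereas the mean of both was called lower (-0.54, adjusted p = 0.0416). That last p was adjusted over 18193 genes instead of all probe sets, so it is not on the same footing as the others.

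Mmp14 had log2 signals of 10.27, 9.91, 10.28 and 10.14 in 1,25D, against 10.09, 10.60 and 10.69 in vehicle at 48 h. The groups overlapped, with a difference of -0.31 (95% interval -0.70 to 0.0801, adjusted p = 0.952); its 3 probe sets differed by -0.36 to -0.26. Mmp9, the other gelatinase, had log2 signals of 5.68, 5.37, 5.86 and 6.18 in 1,25D, against 5.85, 5.80 and 5.82 in vehicle, and the difference was -0.0491 (95% interval -0.44 to 0.34). Mmp7, matrilysin, had 6.04, 5.65, 6.03 and 6.14 in 1,25D, against 5.84, 5.93 and 5.89 in vehicle, with a difference of 0.0774 (95% interval -0.24 to 0.39). By these probe sets the treated arrays of both genes lay on either side of the vehicle arrays. A second Mmp9 probe set differed by 0.20 (95% interval -0.14 to 0.55) and was not called. A change within these intervals could not be shown with this number of arrays.

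None of the 3 inhibitors was called at 48 h. Timp1, the soluble inhibitor made by many cell types, had log2 signals of 11.27, 11.38, 11.33 and 11.26 in 1,25D, against 11.53, 11.71 and 11.46 in vehicle. The treated arrays were all lower, by 0.26 on average (difference -0.26, 95% interval -0.50 to -0.0178), without passing the test (adjusted p = 0.634). Timp2, which both inhibits Mmp2 and takes part in its activation, had log2 signals of 12.50, 12.98, 12.65 and 12.51 in 1,25D, against 12.48, 12.45 and 12.50 in vehicle. The groups overlapped, and the difference was 0.18 (95% interval -0.0483 to 0.40, adjusted p = 0.964). Its 6 probe sets differed by 0.0739 to 0.25, and none was called.

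Markers of white blood cells, which also make these enzymes, were looked at beside the 48 h response. Of 7 macrophage markers 1 was called, where 1.43% of all genes were called higher and 0.951% lower. It was Cd68, a lysosomal protein, higher in 1,25D by 1.23. In every group 5 of the 7 lay below the median of all probe sets, from Itgam at the 9.24 to 14.2 and the pan-leukocyte gene Ptprc at the 12.7 to 19.4 percentile to Lyz2 at the 42.4 to 46.8, and Csf1r lay above it, at the 64.5 to 66.5 percentile. The summed macrophage list had a log2 value of 8.82 to 9.04 in 1,25D and 8.33 to 8.39 in vehicle. Of 5 measured neutrophil markers S100a8 (0.88) and S100a9 (0.92), which stratified epithelia also express, were higher, and Elane, Csf3r and Ngp lay below the median of all probe sets in every group; that list summed to 12.7 to 12.8 in 1,25D and 11.8 to 12 in vehicle. The call of S100a9 was lost on dropping any 1 of 8 arrays (largest adjusted p 0.277). The endothelial list, with 0 of 5 members called, summed to 6.98 to 7.45 in 1,25D and 7.01 to 7.29 in vehicle, and the fibroblast and smooth muscle list summed to 8.64 to 8.99 in 1,25D and 8.75 to 8.88 in vehicle. The part of such cells in the metalloproteinase response was not tested.

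After 6 h of 1,25D, 1 of the 10 genes fell and 0 rose, against 0.165% and 0.687% of all genes; 2 more had an unadjusted p under 0.05. The gene that fell was Timp3. The median log2 difference was -0.082 over the 10 genes and -0.0203 over all genes.

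Timp3, the inhibitor bound to the matrix, had log2 signals of 11.99, 12.35 and 12.11 in 1,25D, against 13.21, 13.51 and 13.26 in vehicle at 6 h. Every treated array lay well below every vehicle array. The difference was -1.18 (SE 0.0964, adjusted p = 3.11e-05), which is 2.26-fold lower, and Timp3 stayed called in each of 27 alternative settings, with adjusted p up to 0.0183. At 48 h the signals were 13.23, 13.47, 13.26 and 13.27 in 1,25D, against 13.39, 13.30 and 13.31 in vehicle, so the groups overlapped; the difference was -0.0267 (95% interval -0.22 to 0.17).

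The other Timp3 probe sets gave lower signals too. At 6 h the 4 Timp3 probe sets differed by -1.36 to -0.82, with no overlap between treated and vehicle arrays in any of them. Of the 4, 3 were called, and the other differed by -0.82 with an adjusted p of 0.0982. At 48 h the 4 differed by -0.22 to -0.0238 and none was called.

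**Figure D3:**
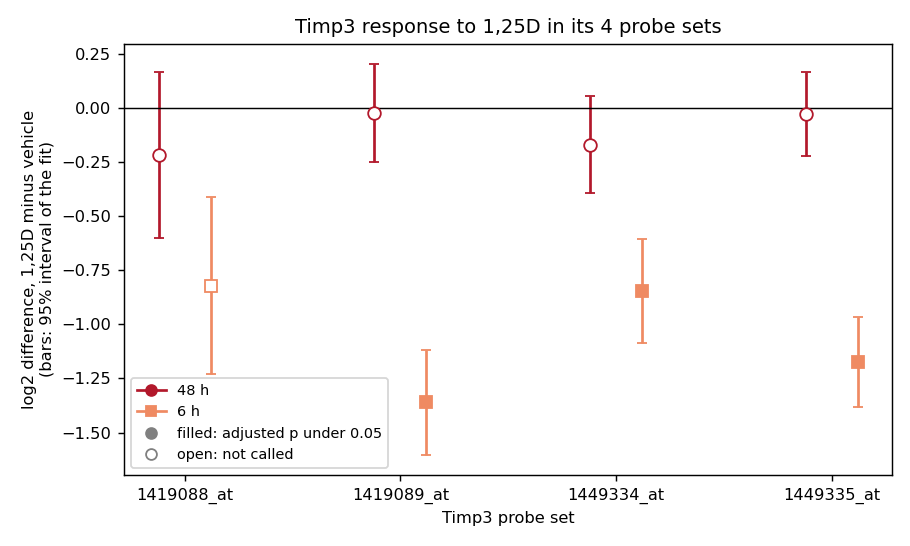
Log2 difference between 1,25D and vehicle at 48 h (circles) and 6 h (squares) for each of the 4 Timp3 probe sets, with 95% intervals of the limma fit; filled symbols passed an adjusted p of 0.05. All 4 lie between -1.36 and -0.82 at 6 h and between -0.22 and -0.0238 at 48 h.

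The 3 genes that rose at 48 h were not called at 6 h. Mmp13 had log2 signals of 4.72, 4.71 and 4.90 in 1,25D, against 3.54, 4.05 and 4.04 in vehicle. The groups did not overlap, but the vehicle mean lay at the 9.28 percentile of all probe sets, among the dimmest signals on the array, and the lowest value was that of vehicle replicate 1, one of the 2 arrays with narrow distributions. The difference was 0.898 (95% interval 0.46 to 1.33, adjusted p = 0.0833), and 0.73 (adjusted p = 0.126) without both such arrays. With an offset of 64 added before taking logs it was 0.21 (adjusted p = 0.856). Mmp13 was called at 6 h when vehicle 48 h replicate 3 was left out of the shared estimate of the spread (adjusted p = 0.0264) and when the probe sets of each gene were averaged before the fit (adjusted p = 0.0384). Mmp13 has 1 probe set, so averaging left its difference at 0.898. The p-values of that setting were adjusted over 18193 genes instead of all probe sets.

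Mmp3 had log2 signals of 7.47, 7.06 and 7.61 in 1,25D, against 6.68, 6.90 and 6.85 in vehicle at 6 h. All treated arrays were higher, with a difference of 0.57 (95% interval 0.21 to 0.93, adjusted p = 0.305). Mmp10 had log2 signals of 6.31, 6.22 and 6.24 in 1,25D, against 6.14, 5.77 and 6.00 in vehicle. The arrays did not overlap here either, with a difference of 0.28 (95% interval -0.0275 to 0.597, adjusted p = 0.901).

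Of the remaining members at 6 h, Mmp2 differed by -0.33 and Timp1 by -0.25, both with adjusted p above 0.84 and with the Mmp2 arrays not overlapping. Mmp14, Mmp9, Mmp7 and Timp2 differed by -0.16, -0.12, -0.0457 and 0.0527, and their treated and vehicle arrays overlapped. By the main probe sets of these 6 genes no 95% interval reached a change of 1.6-fold. The second Mmp9 probe set differed by -0.23 (95% interval -0.599 to 0.142). Some other probe sets were less precise: 1 of Timp2 differed by 0.61 (95% interval -0.38 to 1.60). Another of Mmp14 differed by 0.295 (95% interval -0.196 to 0.786), and neither was called.

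The responses at 48 h and 6 h were compared with each other in the same fit; this comparison shares its arrays with those above. For 4 of the 10 genes the response at 48 h was higher than that at 6 h, and for 0 it was lower, against 0.346% and 0.286% of all genes. The median was 0.124 over the 10 genes and 0.00998 over all genes. The response of Mmp13 was higher by 3.38 (SE 0.28, adjusted p = 8.65e-05), that of Mmp3 by 2.92 (SE 0.23, adjusted p = 6.05e-05) and that of Mmp10 by 1.22 (SE 0.198, adjusted p = 0.0158). The response of Timp3 was higher by 1.15 (SE 0.13, adjusted p = 0.000884), the fall at 6 h having no called counterpart at 48 h; of its 4 probe sets 2 were called in this comparison. Mmp10 was no longer called when any 1 array of 1,25D 6 h or vehicle 48 h replicate 1 or 2 was left out (adjusted p of 0.051 to 0.0594). For the other 6 genes the responses differed by -0.151 to 0.125, with adjusted p of 0.985 or more.

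The arrays at 48 h and 6 h were also compared within each treatment. Hours in culture, the daily repeat of treatment and any renewal of the medium vary together here and cannot be told apart. The sample labels used here hold no day of handling, so whether it varied with time is not known. In 1,25D 4 of the 10 genes were higher and 1 was lower at 48 h than at 6 h, against 10.9% and 12.5% of all genes. In vehicle 1 was higher and 2 were lower, against 9.84% and 8.75% of all genes. The medians were 0.18 in 1,25D and -0.0352 in vehicle over the 10 genes, and 0.0125 in 1,25D and -0.0262 in vehicle over all genes.

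Mmp13 and Mmp3 went opposite ways over time in vehicle. Mmp13 was 3.00-fold higher at 48 h than at 6 h (log2 difference 1.58, SE 0.202, adjusted p = 0.000125), whereas Mmp3 was 2.92-fold lower (-1.55, SE 0.167, adjusted p = 3.21e-05). For both genes the 48 h and 6 h vehicle arrays did not overlap. In 1,25D Mmp13 was 31.2-fold higher at 48 h than at 6 h (4.96, adjusted p = 1.15e-09) and Mmp3 was 2.596-fold higher (1.38, adjusted p = 3.13e-05). The 48 h difference of Mmp3 between 1,25D and vehicle thus held both a higher signal in 1,25D and a lower signal in vehicle than at 6 h. The sizes of both Mmp13 time differences depended on an offset added before taking logs: with 16 they were 4.33 in 1,25D and 0.97 in vehicle, and with 64 they were 3.33 in 1,25D and 0.46 in vehicle.

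For Mmp13 the order of the 4 groups, from high to low, was 1,25D 48 h, vehicle 48 h, 1,25D 6 h and vehicle 6 h, with means of 9.74 ± 0.11, 5.46 ± 0.42, 4.78 ± 0.11 and 3.88 ± 0.29 (SD). The last 2 were not told apart by the fit, and vehicle 48 h was not compared with 1,25D 6 h. For Mmp3 the order was 1,25D 48 h, 1,25D 6 h, vehicle 6 h and vehicle 48 h, with means of 8.76 ± 0.20, 7.38 ± 0.29, 6.81 ± 0.12 and 5.26 ± 0.0966, and the middle 2 were not told apart. Mmp10 averaged 7.42 ± 0.0995 in 1,25D at 48 h, and the other 3 groups lay between 5.92 and 6.25. Over time it changed by 1.16 in 1,25D (adjusted p = 3.85e-05) and by -0.0525 in vehicle (adjusted p = 0.923).

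Timp1 fell over time under both treatments, by 0.87 in 1,25D (adjusted p = 9.3e-05) and by 0.86 in vehicle (adjusted p = 0.000259), and the interval for the difference between its 48 h and 6 h responses ran from -0.36 to 0.34. Timp3 was 1.16 higher at 48 h than at 6 h in 1,25D (adjusted p = 1.16e-06) and 0.00871 higher in vehicle (adjusted p = 0.984). All 4 Timp3 probe sets were called for time in 1,25D and 0 in vehicle. Timp2 was not called by its main probe set (0.26 in 1,25D, adjusted p = 0.126, and 0.13 in vehicle, adjusted p = 0.625). In 1,25D 3 of its 6 probe sets were called higher at 48 h (0.69 to 0.901), so the result for this gene depends on the probe set. In vehicle these 3 differed by 0.40 to 0.80, every 48 h array being higher, and were not called (adjusted p of 0.0961 to 0.104). In 1,25D Mmp2 was lower at 48 h than at 6 h by its second probe set (-0.61, adjusted p = 0.0347). Its main probe set missed the threshold (-0.42, adjusted p = 0.0706). In vehicle the second Mmp2 probe set differed by -0.0351 and the main one by -0.34, without passing (adjusted p of 0.965 and 0.219). For Mmp14, 1 of 3 probe sets was called higher at 48 h in vehicle (0.76, adjusted p = 0.0405), and the main one was not (0.22, adjusted p = 0.656).

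Mmp13, Mmp3 and Mmp10 stand 1st, 4th and 6th in the order of 10 metalloproteinase genes along chromosome 9, and 9 of the 10 had a value. The 6 measured neighbours that were not called, Mmp12, Mmp1b, Mmp1a, Mmp8, Mmp20 and Mmp7, differed at 48 h by -0.0885 to 0.11. Mmp12 and Mmp1b lie between Mmp13 and Mmp3 and differed by 0.11 and 0.0936, and Mmp1a, between Mmp3 and Mmp10, differed by -0.0173. The Mmp7 promoter holds the same AP-1 letters as Mmp3 and Mmp10, and its log2 signal was 5.97 ± 0.21 in 1,25D and 5.89 ± 0.0484 in vehicle at 48 h. Most of these neighbours had low signals in all groups, and detection calls were not used, so whether they were expressed at all is not known.

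**Figure D4:**
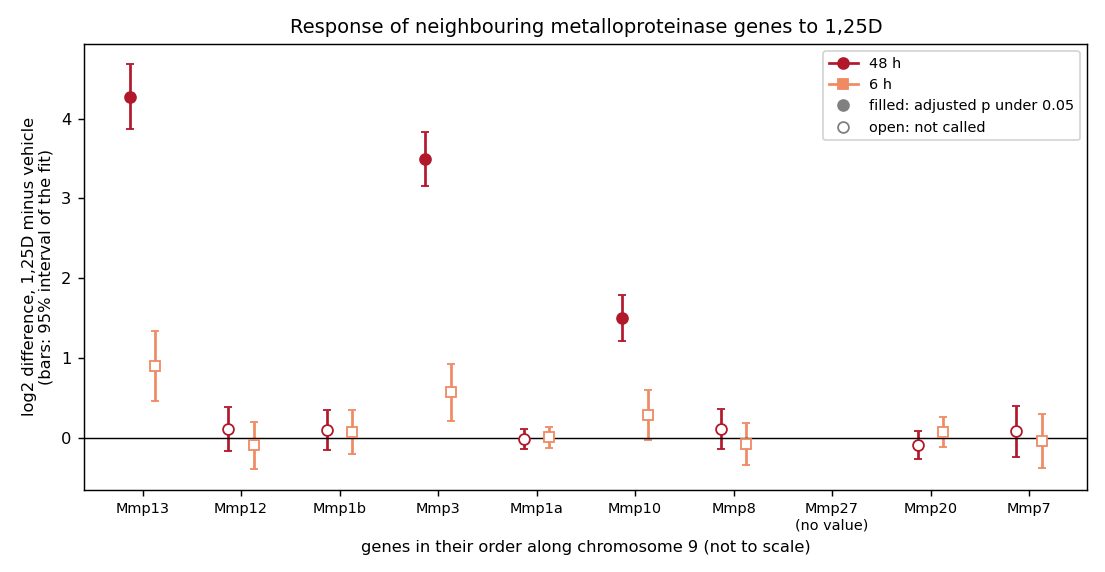
Log2 difference between 1,25D and vehicle at 48 h (circles) and 6 h (squares) for the metalloproteinase genes of chromosome 9, in their order along it; bars are 95% intervals of the limma fit, and filled symbols passed an adjusted p of 0.05. Only Mmp13, Mmp3 and Mmp10 of the 9 measured genes were called, at 48 h, and the other 6 lie between -0.0885 and 0.11 at that time.

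Other genes that act on or with the metalloproteinases were taken from lists drawn up from general knowledge with earlier results of these data known. Over all genes, 1.43% rose and 0.951% fell at 48 h, with a median log2 difference of -0.00239. At 6 h 0.687% of all genes rose and 0.165% fell, with a median of -0.0203. Of 11 other metalloproteinases, 0 rose and 0 fell at either time by limma, and 0 had an unadjusted p under 0.05; their median difference was 0.0363 at 48 h and -0.0485 at 6 h. Of 7 further inhibitors, 0 were called at either time, with 0 at 48 h and 2 at 6 h under an unadjusted p of 0.05. They include Reck, a membrane-bound inhibitor of metalloproteinases, which differed by 0.38 at 48 h and 0.43 at 6 h (adjusted p of 0.756 and 0.817), and Tfpi2, a secreted protease inhibitor, which differed by 0.101 at 48 h and 0.49 at 6 h (adjusted p of 1 and 0.0776).

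Of 10 genes that activate or induce metalloproteinases, 1 rose and 0 fell at 48 h, against 1.43% and 0.951% of all genes. At 6 h 0 of the 10 were called, and the medians were -0.146 at 48 h and -0.11 at 6 h. The gene that rose was Plat, the tissue plasminogen activator (0.84, adjusted p = 0.0399), and it was not called in 9 of the 13 settings that leave out 1 array (adjusted p up to 0.229). Furin, which activates Mmp14, differed by -0.42 at 48 h and -0.32 at 6 h without passing (adjusted p of 0.642 and 0.967). Of 18 measured matrix substrates, 1 rose at each time, against 1.43% of all genes at 48 h and 0.687% at 6 h. Of these substrates 0 fell, and the medians were 0.029 at 48 h and -0.0597 at 6 h. The substrates that rose were the laminin chains Lama3 at 48 h (0.88, adjusted p = 0.0109) and Lama5 at 6 h (0.596, adjusted p = 0.0027). For Lama5 the adjusted p was 0.264 for the mean over its probe sets and 0.146 when only the groups compared were fitted. Lama3 lost its call when replicate 2 or 3 of vehicle at 48 h was dropped (largest adjusted p 0.0736), and also when probe sets matching more than 1 transcript were dropped, with a difference of 0.18.

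Of 13 measured transcription factors of the AP-1, Ets and Runx families, 1 rose at 48 h and 2 at 6 h, against 1.43% and 0.687% of all genes. Of these factors 0 fell, and the medians were 0.0371 at 48 h and 0.12 at 6 h. Fos, a component of AP-1, had a log2 signal of 10.71 ± 0.0603 in 1,25D and 10.04 ± 0.0738 in vehicle at 48 h (difference 0.67, adjusted p = 0.00146). At 6 h Fos had 10.53 ± 0.16 in 1,25D and 9.96 ± 0.12 in vehicle (0.57, adjusted p = 0.0146). That call did not hold when replicate 2 of vehicle, or replicate 1 or 3 of 1,25D, was dropped at 6 h (largest adjusted p 0.0985). It was also lost when only the groups compared were fitted (adjusted p = 0.287). At a fold of at least 1.5 Fos was called at neither time. Ets1, which acts with AP-1 at some metalloproteinase promoters, had 9.23 ± 0.32 in 1,25D and 9.22 ± 0.15 in vehicle at 48 h, and 10.67 ± 0.063 in 1,25D and 9.27 ± 0.15 in vehicle at 6 h (1.39, adjusted p = 0.000656). Its response at 48 h was lower than that at 6 h by the test of the difference (-1.38, adjusted p = 0.0161). Jun differed by -0.32 at 48 h and 0.46 at 6 h and was not called at either time.

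Of 14 measured cytokines, growth factors and receptors known to induce metalloproteinases, 2 rose and 2 fell at 48 h, against 1.43% and 0.951% of all genes. At 6 h 1 rose and 1 fell, against 0.687% and 0.165% of all genes. The medians of the 14 were 0.163 at 48 h and -0.15 at 6 h. Il1a, the gene of interleukin-1 alpha and a known inducer of stromelysins, averaged 9.70 ± 0.0646 in 1,25D and 7.42 ± 0.11 in vehicle at 48 h, and 9.02 ± 0.13 in 1,25D and 6.24 ± 0.074 in vehicle at 6 h. Ereg, the growth factor epiregulin, rose at 48 h (0.61, adjusted p = 0.00255). Lif (-0.76, adjusted p = 0.0171) and Tgfb2 (-0.76, adjusted p = 0.016) passed as lower at 48 h, and neither call held without vehicle 48 h replicate 3 (adjusted p of 0.117 and 0.0829) or with the replicate number as a block (adjusted p of 0.0744 and 0.0605). Lif was also lost without replicate 2 of vehicle or of 1,25D at 48 h, and Tgfb2 without replicate 1 of vehicle or replicate 3 of 1,25D. Tgfb2 differed by -0.0226 when probe sets matching more than 1 transcript were dropped, and Lif by -0.30 as the mean over its probe sets (adjusted p = 0.212), so both depend on the probe set. Il6 fell at 6 h (-1.56, adjusted p = 0.000116) and differed by 0.34 at 48 h.

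Likeness of pattern was measured as the root mean square difference between the signals of 2 genes over the 13 arrays, after each gene's own mean was subtracted. The 3 named genes nearest to Mmp13 were Stfa2l1 (0.619), Il33 (0.685) and Klk1b1 (0.691), where Mmp13 itself varied by 2.39 about its mean. Nearest to Mmp3 were F13a1 (0.603), Cbs (0.633) and Serpinb2 (0.658), against its own 1.29, and nearest to Mmp10 were Klk8 (0.223), Ces2g (0.228) and Trnp1 (0.243), against 0.656. F13a1 differed between 1,25D and vehicle by 3.44 at 48 h and 1.44 at 6 h, and Klk8 by 1.48 and 0.72. Nearest to Timp3 were Shf (0.217), Slc1a4 (0.229) and Rdh10 (0.229), against 0.506. These 3 differed by -0.851, -0.73 and -0.758 at 6 h and by 0.000839, 0.00732 and 0.0668 at 48 h.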

How the data were processed

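The authors' deposited table gave 1 log2 value per probe set and array; per the submitters' processing notes MAS5 was named, with no version or role, and how background was corrected and arrays were scaled is not given in the sources used here. From 5 ug of total RNA per sample, per the labels' protocols, biotin-labelled cRNA was hybridised to 1 array each. Groups came from sample titles. The 64 control sets were removed, leaving 45037 of 45101 probe sets: 34945 with 1 gene symbol, 932 with several and 9160 with none in the platform annotation. Names were set against the GRCm38.p6 gene table through 34741 identifiers, and 0 symbols changed. The array's own build is not stated, so coordinates are given only for RefSeq's promoter sequences.

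Group means over 13 arrays were fitted in limma 3.58.1 (R 4.3.3) with an intensity trend, and two-sided p-values were adjusted over all 45037 probe sets. Protein sequences were not used here. The fit was also run on simulated data over 18193 genes, with p-values adjusted over those genes. The simulated noise was independent between genes and equal on every array, and no time effect was simulated. Its counts therefore do not measure the error of the reported fit over 45037 probe sets. In the simulation the fit found, at 48 h, 84 of 100 genes changed by 1 log2 unit, 100 of 100 changed by 2, and 10 false calls. At 6 h these numbers were 84, 97 and 8. The members, lists and alternatives were chosen with earlier results of these data known. The genes named were all members, up to 4 called genes per list with the smallest p, up to 2 uncalled genes of known role, and the 3 nearest patterns. Chromosome 9 neighbours, further markers and further uncalled activators were named after their values were seen. List genes without a match (5 metalloproteinases and 1 factor, 1 growth factor, 2 substrates and 3 markers) were not analysed here. Numbers of arrays limit the precision. Figures were drawn with matplotlib 3.10.9.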

Additional observations from a re-analysis of the deposited data

Results flagged for a closer look

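A difference between the responses at 48 h and 6 h, tested as an interaction in limma, marked 4 of the 10 genes. The response to 1,25D was higher at 48 h than at 6 h by 3.38 for Mmp13, 2.92 for Mmp3, 1.22 for Mmp10 and 1.15 for Timp3 on the log2 scale. For the 3 metalloproteinases both responses had the same sign (4.28 and 0.898 for Mmp13, 3.49 and 0.57 for Mmp3, 1.501 and 0.28 for Mmp10, at 48 h and 6 h), and for Timp3 the difference rested on the 6 h value (-0.0267 at 48 h and -1.18 at 6 h). Within the 4 arrays of 1,25D at 48 h, the only group large enough to be examined, 0 of the 10 genes had an array flagged by Dixon's ratio of gap to range. The largest ratio was 0.81, for Timp3 on replicate 2, and with 4 arrays such a check finds only extreme values.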

How the results depend on the processing

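The calls of the 10 genes were recomputed under 27 alternatives for each comparison (26 for the difference): offsets of 16 and 64, quantile normalization, median centring, no or robust trend, no dim probe sets (lowest 40%), only the groups compared, array weights, a fold of at least 1.5, no probe sets matching several transcripts, the mean over probe sets, the replicate block, both arrays with narrow distributions left out, and each array left out. No call reversed. With the mean over probe sets the members called were 4 instead of 3 at 48 h, Mmp2 being added, and 2 instead of 1 at 6 h, Mmp13 being added. For time in 1,25D they were 7 instead of 5, Mmp2 and Timp2 being added. For time in vehicle they were 4 instead of 3, Mmp14 being added (0.57, adjusted p = 0.0236). In the other settings the number at 48 h was 3. For the difference between responses it was 2 instead of 4 with a fold of at least 1.5, Mmp10 and Timp3 being lost. Leaving out 1 array gave 1 to 2 members at 6 h, 3 at 48 h, 3 to 4 for the difference, 3 for time in vehicle and 5 for time in 1,25D. Timp1 over time was not called at a fold of at least 1.5. Over all genes the count at 48 h, 434 in the reported fit, ran from 90 with that fold to 1043 with array weights, and at 6 h from 35 to 248 instead of 155; for the difference it ran from 32 to 262 instead of 115, for time in vehicle from 538 to 4347 instead of 3382 and for time in 1,25D from 826 to 6146 instead of 4265. Replicate numbers share no stated batch, and deviations of same-numbered arrays correlated from -0.534 to 0.482 over 12 pairs; at 6 h 3 of 3 treated arrays correlated best with their own number, at 48 h 1 of 3. With the replicate block the members called were 1 at 6 h, 3 at 48 h, 4 for the difference, 3 for time in vehicle and 5 for time in 1,25D, the same numbers as without it. Dim signals, such as Mmp13 in vehicle at 6 h, limit the folds.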
